A study of Sus scrofa with 20 samples.

Results

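The nuclear genes of the mitochondrial respiratory chain were examined in backfat, a subcutaneous white fat depot, of Italian Large White pigs. Members were the loci whose Ensembl identifier pairs with a single pig gene symbol that begins with NDUF, SDH, UQCR, COX4 to COX8 or ATP5. The rule used names and no measured value, and it found 44 of the 23483 loci of the count table. Of these 44 loci, 38 encode proteins of the complexes themselves: 17 of complex I, 4 of complex II, 4 of complex III, 7 of complex IV and 6 of complex V. The other 6 encode assembly factors of complex I, which help to build the complex and are no part of it. NDUFA4, named for complex I and since placed in complex IV, was counted with complex IV, and ATP5IF1, the inhibitor protein of ATP synthase, with complex V. The gene name table held 83 symbols of this form, and 39 of them matched no locus by identifier and were not analysed here, COX6A1, COX7A1, COX7B, COX7C, COX6C, COX4I2, NDUFA4L2, ATP5MC2, NDUFS3, NDUFV2 and UQCRC2 among them.

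The respiratory chain sits in the inner mitochondrial membrane. Complexes I and II pass electrons from NADH and succinate to ubiquinone, complex III hands them to cytochrome c, complex IV gives them to oxygen, and complex V, the ATP synthase, uses the proton gradient that complexes I, III and IV build. Most subunits are encoded in the nucleus and imported, a small core is encoded by mitochondrial DNA, and complex II is nuclear throughout. In white fat the chain supports lipid synthesis, the breakdown of stored fat and the burning of fatty acids, and several subunits exist in copies whose use depends on the tissue or on oxygen.

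The 20 libraries, 1 from each backfat sample, came from 10 females and 10 castrated males of 1 breed, labelled with a slaughter weight of 150 to 160 kg and ages of 235 to 250 days in females and 233 to 249 days in castrated males. All were kept in shared housing on 1 diet, with no treatment named, and with no intact males the effects of sex and of castration cannot be told apart. Counts are of polyadenylated RNA, with 25754778 to 51248122 counts per library (median 36922247). CPM below means counts scaled to library size with TMM factors and serves to compare libraries, and FPKM, the authors' fragments per kilobase of transcript scaled to library size, serves to compare genes.

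Some libraries stood apart. Of 18 loci that separated the sexes when the libraries labelled female 10 and castrated male 10 were left out, the first resembled castrated males at 16 and the second resembled females at 17. They also had the fewest counts of the 20 libraries, 25754778 and 28009303. Castrated male 1 had the lowest share of counts on mitochondrially encoded loci, 8.49%, and the library labelled castrated male 10 the highest, 26.3%. Fat cell markers were abundant, at summed levels of 2628 to 6753 CPM for 9 loci of the 7 of 16 listed genes with a locus, with PPARG, the regulator of fat cell differentiation, at a mean of 302.7 CPM. Skeletal muscle markers were near 0, at most 4.17 CPM summed, although only ACTA1 and TNNC2 of 15 listed genes had a locus.

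All 38 subunits lay above the level of a typical locus in backfat. Each of them had a mean FPKM above 2.45, the median of the 21587 tested loci, and the median subunit stood at 143 FPKM. NDUFA4 had the highest level per length among the members, 590 ± 156 FPKM (SD, n = 20), and 0.699% of the tested loci lay above it. The median FPKM was 83.7 in complex I, 127 in complex II, 109 in complex III, 264 in complex IV and 185 in complex V. The 6 assembly factors of the name rule had a far lower median, 5.69 FPKM. They ran from 2.09 FPKM for NDUFAF6 to 43.9 FPKM for NDUFAF3, which lay above subunits such as NDUFB10 at 19.9 FPKM.

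**Figure D1:**
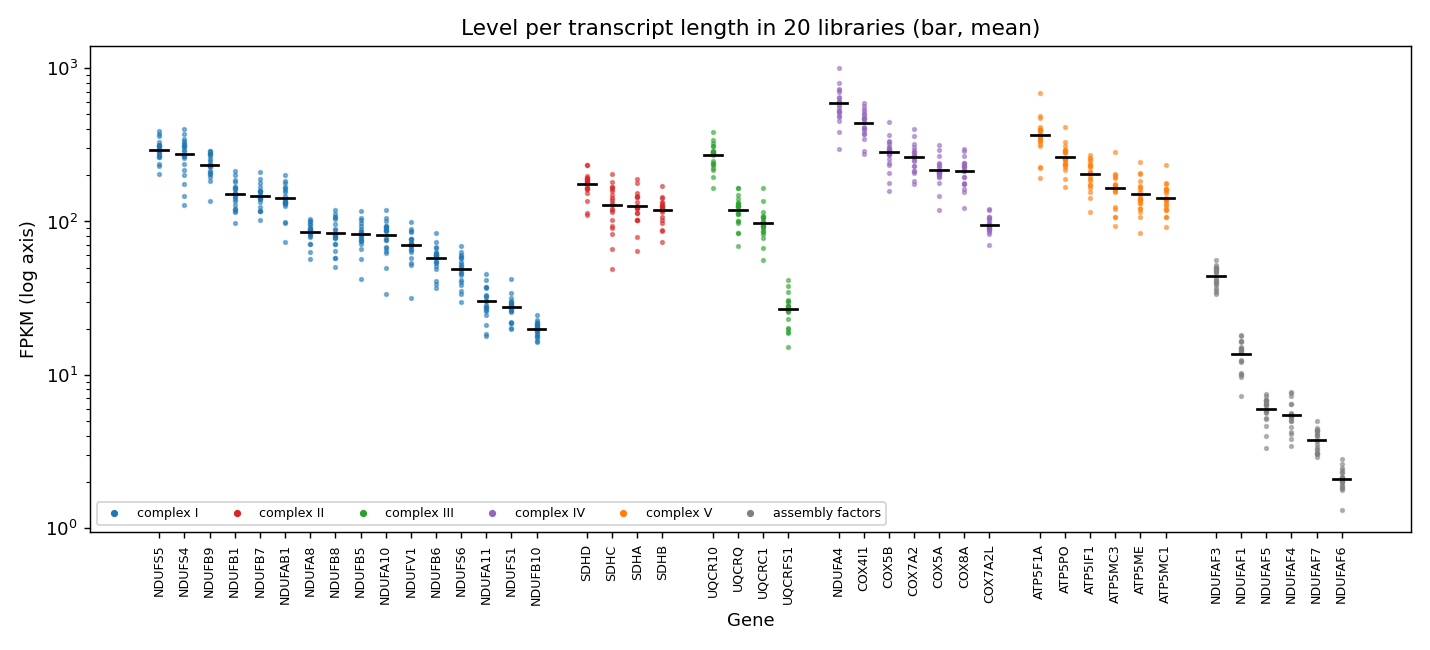
FPKM (log axis) of 43 of the 44 members in the 20 libraries, one point per library and a bar at the mean, grouped by complex and ordered by mean. Complex IV holds the highest level per length, NDUFA4 at a mean of 590 FPKM, and the assembly factors have the lowest median, 5.69 FPKM.

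In complex I, the entry point for NADH, levels per length spread widely among genes whose proteins join a single complex. NDUFS5 and NDUFS4, accessory subunits, had the highest means, 295 ± 46.9 and 275 ± 73.0 FPKM. NDUFB10, a membrane arm subunit, had the lowest at 19.9 ± 2.13 FPKM, followed by NDUFS1, the large iron-sulfur subunit, at 27.5 ± 5.23 FPKM. In complex II the 4 genes were closer: 125 FPKM for SDHA, the flavoprotein that oxidises succinate, 119 for SDHB, the iron-sulfur subunit, and 129 and 175 FPKM for the membrane anchors SDHC and SDHD. In complex III the small subunit UQCR10 stood at 270 ± 51.9 FPKM and UQCRFS1, the Rieske iron-sulfur protein, at 26.9 ± 6.53 FPKM, with UQCRQ at 119 and the core subunit UQCRC1 at 98.2 FPKM between them.

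Complexes IV and V held the highest levels. After NDUFA4 came COX4I1, the widely expressed copy of subunit 4, at 442 ± 86.1 FPKM, and COX7A2L, which is known for its part in joining complexes into supercomplexes, was the lowest of complex IV at 95.5 FPKM. In complex V ATP5F1A, the alpha subunit, stood at 369 ± 106 FPKM and ATP5PO, the stalk subunit, at 263 ± 52.5 FPKM. ATP5ME (151 FPKM) and ATP5MC1 (143 FPKM) were the lowest of the 6, and ATP5IF1, the inhibitor, lay between at 204 ± 42.1 FPKM. FPKM depends on the length assigned to a locus. The ratio of CPM to FPKM, which stands for that length, ran from 0.127 kb for NDUFB7 to 6.75 kb for NDUFAF6 and was 6.31 kb for UQCRFS1, so these orders rest on the authors' transcript models.

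Among the other genes of complex IV, COX5B and COX5A, which encode separate subunits, stood at 284 and 215 FPKM, COX7A2, the widely expressed copy of subunit 7a, at 264 FPKM, and COX8A at 214 FPKM. ATP5MC3 and ATP5MC1 encode the same mature c subunit of the ATP synthase ring. Their FPKM ratio ran from 0.671 in the library labelled castrated male 10 to 1.45 in castrated male 5, with a median of 1.16. By FPKM ATP5MC3 was the higher of the pair in 18 of 20 libraries. By CPM the ratio ran from 2.05 in castrated male 1 to 3.40 in castrated male 5 (median 2.79), so the lowest library differed between the measures. NDUFA4 exceeded COX4I1 in 20 of 20 libraries, by a ratio of 1.03 in female 9 to 1.70 in female 4 (FPKM, median 1.31). The ratio of ATP5F1A to the inhibitor gene ATP5IF1 ran from 1.29 in female 2 to 2.53 in female 4 (FPKM, median 1.73). That of COX7A2 to COX7A2L ran from 2.1 in female 9 to 3.94 in female 4 (FPKM, median 2.66). By FPKM the last 3 ratios were highest in the same animal, female 4. By CPM that of COX7A2 to COX7A2L was highest there, at 0.956 (median 0.642), so the order of this pair differed between the measures. Those of NDUFA4 to COX4I1 and of ATP5F1A to ATP5IF1 were highest by CPM in the library labelled female 10. By CPM the ratio of NDUFA4 to COX4I1 ran from 0.602 to 1.14 with a median of 0.779, below 1.

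The subunits of the 5 complexes differed between animals together. A library's level is given here as the median, over subunits, of its log2 CPM minus the gene's own median over the 20 libraries. Castrated male 1 had the lowest level, -0.71, which is 0.611 times the median library, and all 38 subunits lay below their own medians there. The same held for all 38 subunits in female 9 (level -0.44) and in female 2 (level -0.36). At the other end all 38 subunits lay above their medians in female 4, with a level of 0.50 or 1.41 times the median library, and in castrated male 4, with a level of 0.27. The other 15 libraries had levels between -0.16 (castrated male 2) and 0.22 (female 7). Over all 8769 loci of mean CPM of at least 10, the same median deviation was 0.03 in castrated male 1 and -0.03 in female 4.

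**Figure D2:**
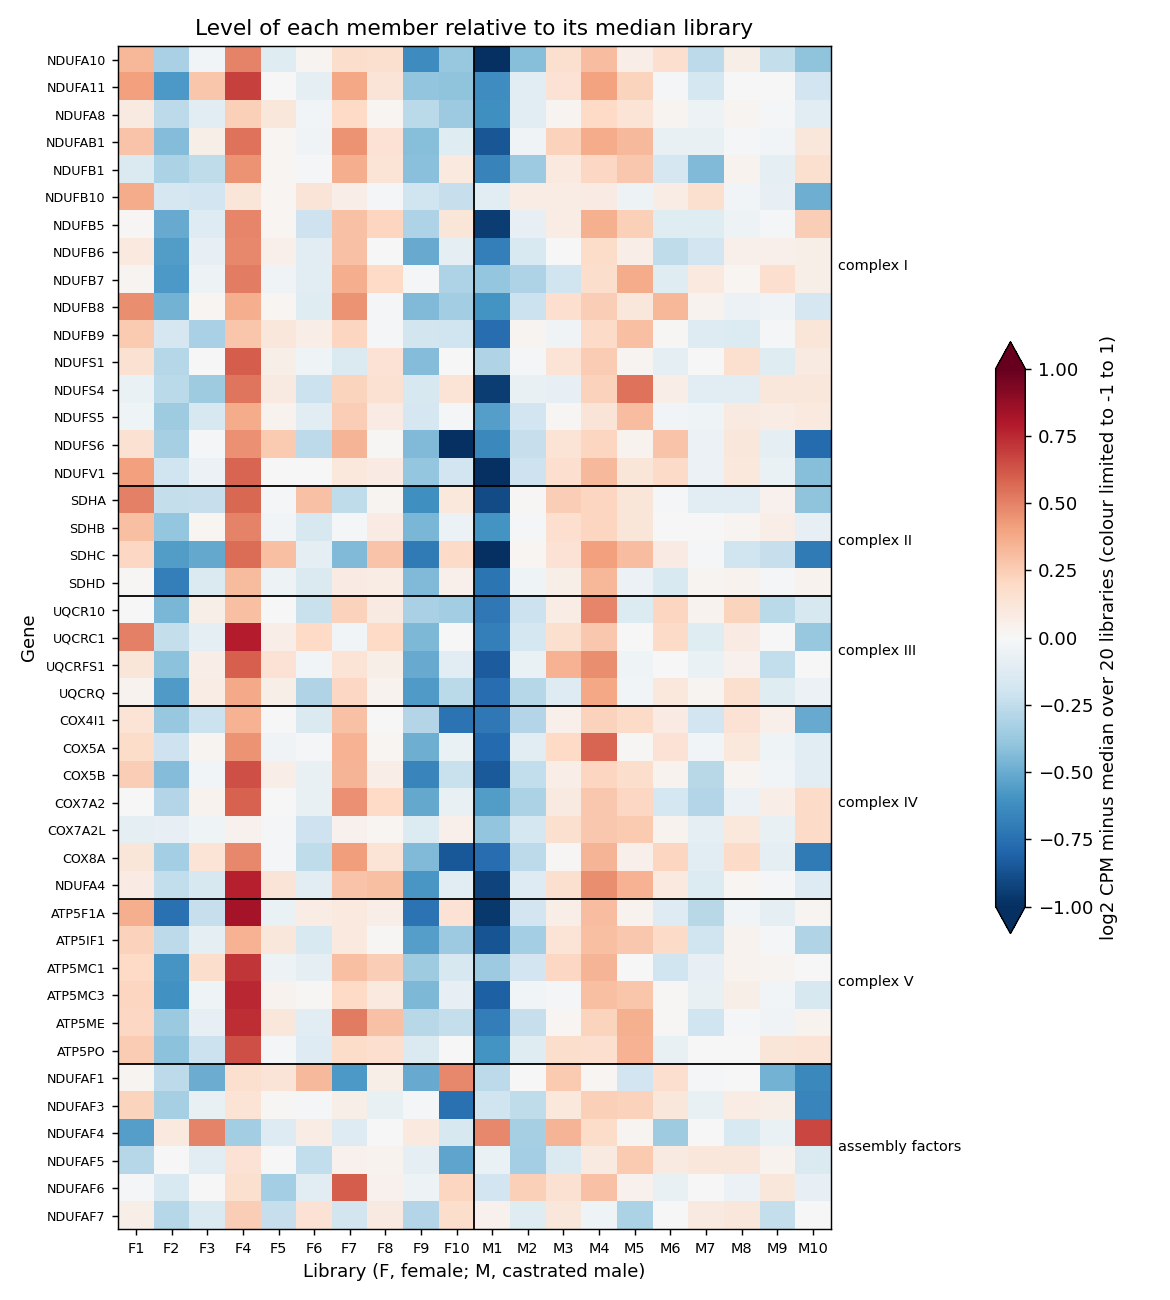
Log2 CPM of 43 of the 44 members minus each gene's median over 20 libraries (colour, limited to -1 to 1), with libraries in columns and genes in rows by complex. Whole columns are blue in castrated male 1, female 9 and female 2 and red in female 4 and castrated male 4 for the 37 subunits shown. The 6 assembly factors at the bottom are not all of 1 colour in any of these libraries. Their median deviations there have the same sign as those of the subunits and are smaller, from -0.21 in female 2 to 0.15 in female 4.

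This shift had a like size in all 5 complexes. In castrated male 1 the level was -0.64 for complex I, -0.81 for complex II, -0.74 for complex III, -0.76 for complex IV and -0.75 for complex V. In female 4 it was 0.48, 0.53, 0.49, 0.48 and 0.73 in the same order. The assembly factors stood at -0.13 and 0.15 in these libraries. Over the 20 libraries, with sex means removed, the SD of the level was 0.250 to 0.321 in the 5 complexes and 0.101 for the assembly factors, which are fewer and lower in counts than the subunits. As a share of all counts the 38 subunits took from 0.344% in castrated male 1 to 0.755% in female 4.

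**Figure D3:**
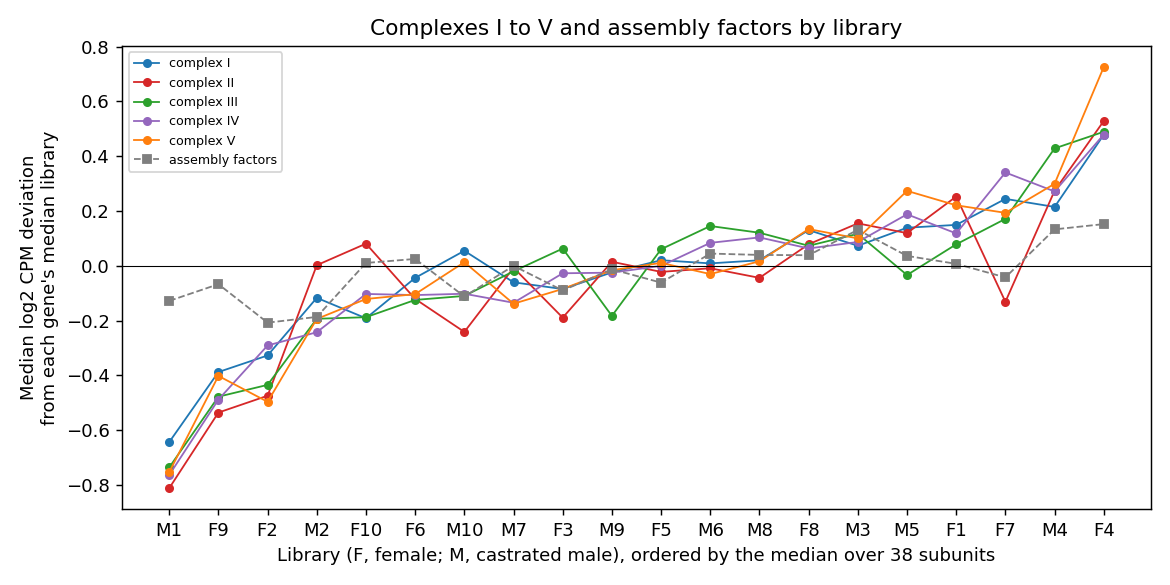
Level of each complex and of the assembly factors (median log2 CPM deviation from each gene's median library) in the 20 libraries, ordered by the level over 38 subunits. The 5 complexes run together from between -0.81 and -0.64 in castrated male 1 to between 0.48 and 0.73 in female 4, while the assembly factors stay between -0.21 and 0.15.

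Castrated male 1 was the lowest library for 30 of the 38 subunits, where 11.5% of the 8769 loci of mean CPM of at least 10 had their lowest value. Female 4 was the highest for 29 of the 38, where 5.58% of those loci had their highest. SDHC, a membrane anchor of complex II, had the highest spread of the members, with a residual SD of log2 CPM of 0.499. Its level ran from 153 through a median of 259 to 368 CPM in females and from 91.7 through 249.6 to 332 CPM in castrated males, a 4.01-fold range. Its lowest values were in castrated male 1, the library labelled castrated male 10 (152.9 CPM) and female 9, its highest in female 4, and the sexes overlapped.

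ATP5F1A, the alpha subunit of the ATP synthase, had a residual SD of 0.410. It ran from 401 through 708 to 1198 CPM in females and from 345 through 646 to 834 CPM in castrated males, a 3.47-fold range. Female 4 stood above every other library, of which female 1 was next at 865 CPM, and castrated male 1, female 2 and female 9 were lowest. NDUFA10, an accessory subunit of complex I, had an SD of 0.413, with 51.0 CPM in castrated male 1 against 179 CPM in female 4. NDUFS6 (SD 0.409) and COX8A (SD 0.392) came next, and in the libraries labelled female 10 and castrated male 10 their counts were among the 3 lowest of 20, at 20.3 and 25.2 CPM for NDUFS6 and 57.3 and 63.1 CPM for COX8A. By FPKM the library labelled castrated male 10 was at 57.7 for NDUFS6 and 241 for COX8A, above the mean of each, 48.9 and 214 FPKM, whereas the library labelled female 10 was below both means at 33.4 and 177 FPKM.

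The steadiest members were found in complexes I and IV and among the assembly factors. COX7A2L had a residual SD of 0.162 and ran from 112 through 127 to 134 CPM in females and from 98.6 through 136 to 156 CPM in castrated males, a 1.58-fold range. NDUFB10 had an SD of 0.188, NDUFAF6 of 0.209 and NDUFA8 of 0.215. In COX7A2L castrated male 1 was again the lowest library, and female 4, at 133.5 CPM, was within the range of the other females. The median residual SD was 0.316 for the 38 subunits and 0.262 for the loci of mean CPM of at least 10, and 30 of the 38 subunits lay above the latter value. In fold terms the highest library exceeded the lowest by a median of 2.41 times for the subunits and 2.01 times for those loci.

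Subunits were correlated with each other irrespective of complex. With sex means removed, log2 CPM over the 20 libraries gave a mean pairwise Pearson r of 0.748 for the 703 pairs of subunits, against 0.012 for all pairs of the 8769 loci of mean CPM of at least 10. The pairs share libraries, scaling and the animals at the extremes, so the value is a description. Pairs of the same complex had a mean of 0.727 (184 pairs) and pairs from different complexes a mean of 0.755 (519 pairs). Within a complex the mean was 0.698 for complex I, 0.828 for complex II, 0.839 for complex III, 0.770 for complex IV and 0.851 for complex V. COX5B (mean r of 0.844 with the other subunits), ATP5MC3 (0.838) and NDUFA4 (0.837) followed the rest most closely, and NDUFB10 (0.410) and COX7A2L (0.597) least. Both were also among the steadiest members.

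The mean r between subunits was 0.681 without castrated male 1, 0.805 without the libraries labelled female 10 and castrated male 10, and 0.762 by FPKM. Without the 4 libraries of most extreme level (castrated male 1, female 2, female 4 and female 9), left out after their values were seen, it was 0.480. Subunits had a mean r of 0.214 with the 6 assembly factors. With 12 loci of electron carriers and ubiquinone synthesis outside the name rule, such as CYCS (cytochrome c) and ETFA, the mean r was 0.411. With 14 loci of other assembly factors, such as SCO1 and COX15, it was 0.229, and with 12 loci of mitochondrial biogenesis and DNA maintenance, such as NRF1 and POLG, it was -0.009.

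Markers of other cell types were set beside the level of the subunits. In castrated male 1 the summed level of 10 macrophage loci (9 of 15 listed genes had a locus) was 1118 CPM, the highest of the 20 libraries, against 92.6 to 424.5 CPM in females and a median of 279.3 CPM in castrated males. None of the macrophage genes with a locus was at 0 in all libraries, and C1QA ran from 23.7 to 388 CPM. Endothelial markers (4 loci) were also highest there at 2523 CPM and fibroblast markers (7 loci) lowest at 6954 CPM. Fat cell markers at 3936 CPM were 17th from the top. Single genes of these lists differed in that library. PPARG (149 CPM), CIDEC (216 CPM) and GPD1 (208 CPM) had their lowest values of the 20 libraries, while PLIN4 was at 2097 CPM against a mean of 1829 CPM. Among fibroblast markers the main COL3A1 locus was at 3894 CPM against a mean of 10416 CPM, while FBN1 was at 381 against 274 CPM. In female 4 the fat cell markers stood at 5047 CPM, 10th from the top, and the macrophage markers at 180 CPM, 17th. Its endothelial markers were 18th at 1410 CPM and its fibroblast markers 3rd at 21060 CPM. Female 9, of the second lowest subunit level, shared the pattern of castrated male 1 in part. Its endothelial markers were 3rd from the top at 2219 CPM and its fibroblast markers 17th at 14668 CPM. Its macrophage markers were 12th at 225 CPM and its fat cell markers 7th at 5210 CPM. Female 2 had macrophage markers of 424.5 CPM, 4th from the top, and endothelial markers of 2142 CPM, 5th. Its fibroblast markers were 6th at 18579 CPM and its fat cell markers 12th at 4962 CPM. The mean r of subunits with macrophage loci was -0.397 over 20 libraries, -0.187 without castrated male 1 and -0.053 without the 4 libraries of most extreme level. With endothelial loci it was -0.402, -0.281 and -0.039 in these settings, and with fat cell loci 0.291, 0.181 and 0.174. With fibroblast loci it was 0.166, 0.001 and -0.137. The part of cell composition in the shared level was not tested, and in bulk tissue fewer cells of a type and less RNA per cell cannot be told apart.

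Females and castrated males did not differ detectably in any member. Log2 differences, females minus castrated males, ran from -0.14 to 0.18 over the 44 members with a median of 0.03, and the ranges of the sexes overlapped for all 44. In the edgeR quasi-likelihood fit none of the 44 members passed an adjusted p of 0.05 and none had an unadjusted p under 0.05. Over the whole table edgeR called 0 of 21587 loci (0%), 935 loci (4.33%) had an unadjusted p under 0.05, DESeq2 called 6 (0.0278%) and limma-trend on FPKM 11 (0.051%), with no member among the calls of either. Without the libraries labelled female 10 and castrated male 10 edgeR called 18 loci (0.0834%), again with no member.

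UQCRC1, a core subunit of complex III, had the smallest p above 0. It ran from 112 through 157 to 265 CPM in females and from 95.6 through 153 to 185 CPM in castrated males, a log2 difference of 0.18 (SE 0.138, adjusted p = 1.0 by edgeR). The highest female was female 4 and the lowest castrated male was castrated male 1, and the other animals overlapped. ATP5ME (0.15), ATP5F1A (0.14) and NDUFA10 (0.14) followed above 0. Without castrated male 1 these 3 differences were 0.096, 0.077 and 0.055, and with age in the model 0.053, 0.0091 and 0.034, while that of UQCRC1 was 0.13 and 0.10. Below 0 were COX7A2L at -0.08 (SE 0.078), SDHD at -0.04 and the assembly factors NDUFAF4 at -0.14, NDUFAF5 at -0.10 and NDUFAF3 at -0.05. COX4I1 lay at 173 through 274 to 366 CPM in females and 175 through 297 to 337 CPM in castrated males, with a difference within 0.01 of 0. SEs ran from 0.078 to 0.197 for the 44 members. Of the 44 members 34 lay above 0 (50.9% of all loci did), a count that was 18 without castrated male 1 and 13 with age in the model. The females were older than the castrated males on average.

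Slopes on age leaned to one side for the subunits of every complex, and none passed. Slopes on age at slaughter, per 10 days and with sex in the model, were above 0 for 43 of 44 members and all 38 subunits, against 50.2% of all loci. The members' median slope was 0.19 on the log2 scale, and that of all loci was 0.00. None of the 44 members passed an adjusted p of 0.05 in edgeR, and 3 had an unadjusted p under 0.05. In the whole table edgeR called 0 loci (0%), with 1189 (5.51%) at an unadjusted p under 0.05, DESeq2 called 5 (0.0232%) and limma-trend on FPKM 1 (0.00463%), none of them members. Since subunits were correlated across animals, the 43 signs are not separate observations.

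NDUFB1, a small accessory subunit of complex I, had the smallest p. It ran from 16.8 through 22.5 to 30.7 CPM in females and from 14.2 through 22.1 to 27.1 CPM in castrated males, and its slope was 0.30 per 10 days (SE 0.119, unadjusted p = 0.0203, adjusted p = 0.859 by edgeR). High values were seen in female 7 (249 days, 28.9 CPM) and castrated male 5 (249 days, 27.1 CPM) and low ones in castrated male 1 (237 days) and castrated male 2 (233 days, 17.5 CPM). Other animals went against the slope: castrated male 7 (241 days, 16.6 CPM) and female 9 (244 days, 16.8 CPM) were lower than castrated male 2, and the highest, female 4, was slaughtered at 243 days. NDUFS5 had a slope of 0.21 (SE 0.093) and ATP5PO of 0.25 (SE 0.116), each with an adjusted p of 0.867 by edgeR. NDUFB5 and NDUFAB1, the mitochondrial acyl carrier protein, each had 0.27. ATP5F1A had the steepest slope of the 44 members, 0.33 (SE 0.170), and NDUFAF4, at -0.06, the sole one below 0.

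**Figure D4:**
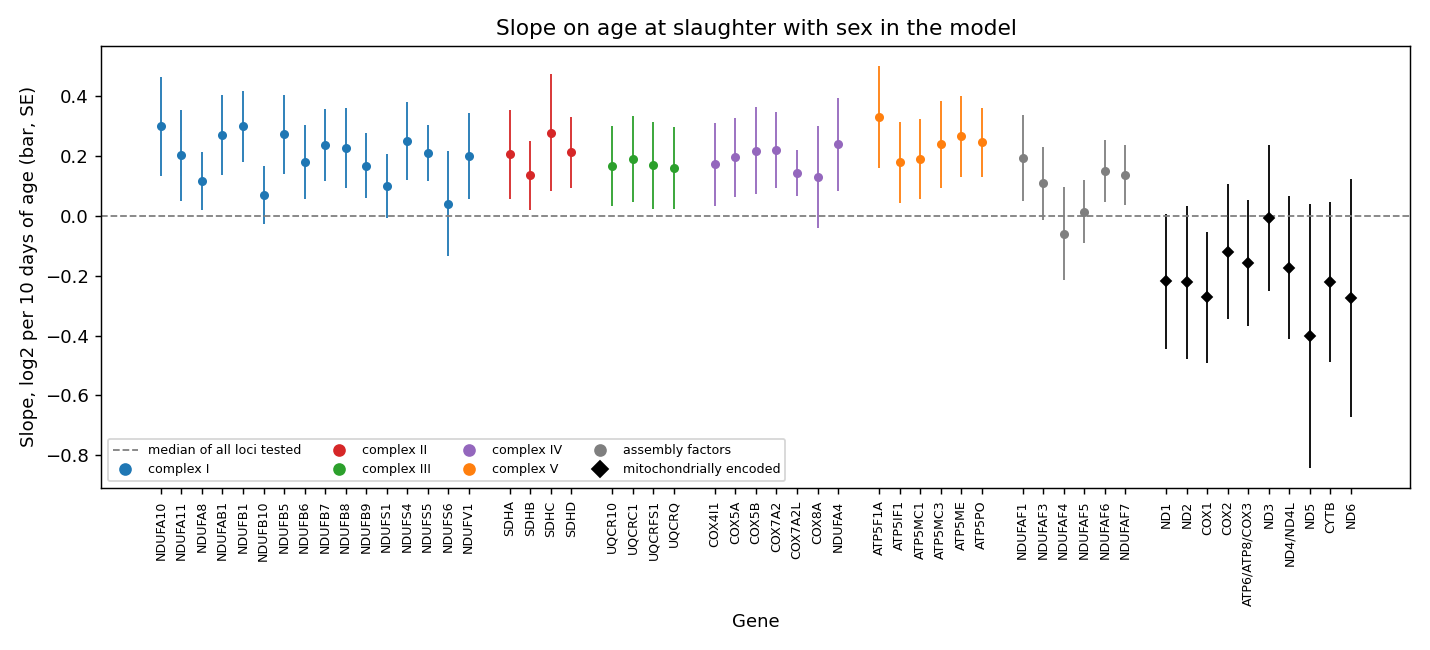
Slope on age per 10 days (log2 scale, bars are SE) for 43 of the 44 members by complex and for the 10 mitochondrially encoded loci, from the edgeR fit with sex in the model; the dashed line is the median of all tested loci. The 37 subunits shown lie above the line and all 10 mitochondrially encoded loci below it with a median of -0.22, and none of them passed.

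The median slope was 0.20 in complex I, 0.21 in complex II, 0.17 in complex III, 0.20 in complex IV, 0.24 in complex V and 0.12 for the assembly factors. The 10 mitochondrially encoded loci, which carry the core subunits of complexes I, III, IV and V, were all below 0 with a median of -0.22, and none passed in edgeR. Of the carriers and ubiquinone genes 10 of 12 loci were above 0 with a median of 0.12, and none passed. Macrophage loci were below 0 in 10 of 10, with a median of -0.62, and fat cell loci above 0 in 9 of 9, with a median of 0.16, and their part in the members' slopes was not tested. Without castrated male 1 the members' median slope was 0.15, and without the libraries labelled female 10 and castrated male 10 it was 0.23 with 10 of 44 members, and 5.24% of all loci, at an unadjusted p under 0.05. Because the labels give 1 weight range for all animals, age and growth rate cannot be told apart.

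The age slopes of the sexes were compared by an interaction term. The difference, female slope minus castrated male slope, was below 0 in 37 of 44 members with a median of -0.19, and above 0 in the remaining 7, against 51.7% of all loci. No member passed in edgeR, and COX7A2L alone had an unadjusted p under 0.05 at -0.34 (SE 0.141, unadjusted p = 0.0254, adjusted p = 0.895). Among the oldest females COX7A2L was at 112 CPM in female 6, the lowest female, and at 133.7, 133.0 and 131.0 CPM in the library labelled female 10 and in females 7 and 8, and castrated male 5, aged 249 days, was at 155 CPM. Over all loci edgeR called 0 (0%), with 1170 (5.42%) at an unadjusted p under 0.05, DESeq2 called 3 (0.0139%) and limma-trend on FPKM 0, none of them members. ATP5IF1 (-0.45, SE 0.264), NDUFS6 (-0.41), NDUFAF5 (-0.39) and NDUFA10 (-0.38) had the next smallest p below 0. Above 0 were NDUFAF6 (0.29), NDUFAF7 (0.24), NDUFB10 (0.11), NDUFAF1 (0.11) and SDHD (0.08). Without castrated male 1 the median was -0.10 and 12 members lay above 0.

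Nuclear subunits were set against the mitochondrially encoded transcripts of the same library, since the chain is built from both. Mitochondrial loci were far more abundant: COX1, a core subunit of complex IV, ran from 21992 to 68306 CPM, and its FPKM exceeded that of COX4I1 by 27.7 times in castrated male 5 to 85.1 times in the library labelled castrated male 10 (median 50.2). The share of counts on the 10 mitochondrial loci varied 8.49% to 26.3%, and those loci were highest in the library labelled castrated male 10 with the exception of the ND4 and ND4L locus, highest in castrated male 9. The mean r among the mitochondrial loci was 0.839, and the mean r between nuclear subunits and mitochondrial loci was 0.239 over 20 libraries and 0.035 without castrated male 1. For single subunits it ran from -0.24 for NDUFB10 to 0.45 for COX7A2L.

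**Figure D5:**
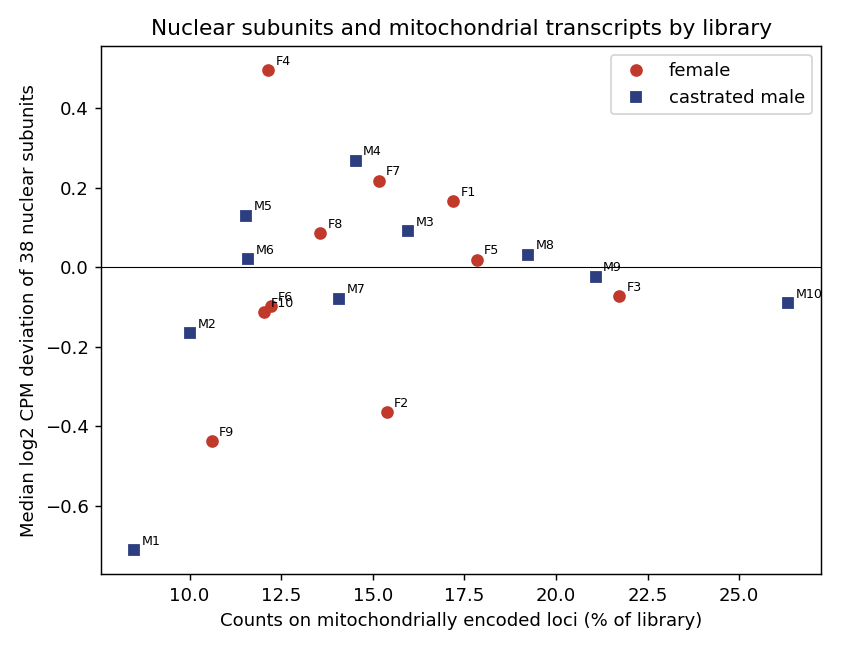
Level of the 38 nuclear subunits (median log2 CPM deviation) against the percent of counts on mitochondrially encoded loci in the 20 libraries, by sex. Castrated male 1 is lowest on both axes (8.49% and -0.71), the library labelled castrated male 10 has the highest share (26.3%) with a level of -0.09, and female 4 has the highest level (0.50) at a share of 12.1%.

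Per doubling of the mitochondrial share, with sex in the model, 37 of 44 members had slopes above 0 (47.6% of all loci did) with a median of 0.14, while the mitochondrial loci themselves had a median of 1.12. None of the members passed in edgeR and none had an unadjusted p under 0.05. Over all loci edgeR called 12 (0.0556%), of which 10 are the mitochondrial loci that make up the share, and 1783 (8.26%) had an unadjusted p under 0.05. DESeq2 called 48 (0.222%) and limma-trend on FPKM 5 (0.0232%), with no member among them, and in the latter 4 of 44 members and 7.92% of all loci had an unadjusted p under 0.05. UQCRQ, a small subunit of complex III, had a slope of 0.28 (SE 0.164, adjusted p = 0.664 by edgeR) and ran from 52.1 through 79.0 to 100.3 CPM in females and from 45.5 through 75.0 to 100.9 CPM in castrated males. Its lowest library was castrated male 1, and the library labelled castrated male 10, of the highest share, was at 74.1 CPM, near the middle.

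NDUFB6 and COX7A2 each had a slope of 0.25, NDUFAB1 of 0.23 and COX7A2L of 0.15. Below 0 were NDUFAF1 at -0.29 (SE 0.182) and NDUFB10 and SDHC at -0.10 each, with NDUFAF7 at -0.05. The members' median slope rested on castrated male 1: without that library it was -0.00084, with 21 of 44 members above 0, and without the library labelled castrated male 10 it was 0.20. Without both libraries, a setting chosen after the data were seen, it was 0.05 with 27 members above 0.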

How the data were processed

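Per the labels' protocols, backfat was frozen at slaughter, RNA was extracted with Trizol, and oligo-dT libraries were sequenced as paired reads. The authors deposited raw read counts and FPKM per Cufflinks locus. Cufflinks 2.1.1, TopHat2 2.0.8, Bowtie2 2.1.0.0 and DESeq2 are listed in the submitters' processing notes, with Sscrofa10.2 as the build. How reads were counted, by which annotation, with which strand rule, and how multiply mapped reads were handled is not given in the sources used here. Reads of pseudogene copies may therefore be split. Deposited isoform FPKM were not used. Symbols came from a gene name table by Ensembl identifier.

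Counts were fitted with edgeR 4.0.16 (quasi-likelihood, TMM, filterByExpr by group, Benjamini-Hochberg at 0.05 over 21587 loci) in R 4.3.3. All 44 members passed the filter. log2 CPM used a prior count of 2. Alternatives were DESeq2 1.42.0, upper-quartile scaling, no filter, limma-trend 3.58.1 on log2(FPKM + 0.1), other covariates, and leaving out libraries. The fits for sex, age and mitochondrial share were tested on simulated data, with loci drawn independently and planted effects larger than those of the members. That test does not show what could be detected among the members, which are correlated. Library numbers follow accession order. P-values set each difference or slope against the spread between these libraries, 1 from each backfat sample.

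The members, lists and tests were chosen with earlier results of these data known. Named were, per comparison, the 5 members of smallest p in each direction (no member passed). Also named were the 2 highest and 2 lowest subunits per complex by FPKM, the 5 of highest and of lowest residual SD among members of mean CPM of at least 10, and a set list of genes of complexes II, IV and V. The values of 1 member, which is in all counts and fits, are not reported here. ATP5F1A in the age comparison was named after its value was seen. Python 3.11.15, numpy 2.4.6, pandas 2.3.3 and matplotlib 3.10.9 made the descriptions and plots.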

Additional observations from a re-analysis of the deposited data

Results flagged for a closer look

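Within each sex, the levels of the 5 complexes, of the assembly factors and of all subunits, and the CPM of COX4I1, COX5A, COX5B, COX7A2, COX7A2L, COX8A, NDUFA4, ATP5MC1, ATP5MC3, ATP5IF1 and SDHA to SDHD, were screened for a single library far from the other 9 by Dixon's 95% bound of 0.466. Of 42 groups screened 8 exceeded it, and chance alone gives about 1 in 20; the groups share libraries and are not independent. Castrated male 1 was the lowest castrated male for complex I (-0.64, next -0.12), complex II (-0.81, next -0.24), complex IV (-0.76, next -0.24), complex V (-0.75, next -0.19) and all subunits (-0.71, next -0.16), each a median log2 deviation. It was also the lowest castrated male for SDHB, the iron-sulfur subunit of complex II, at 85.3 CPM (next 122 CPM), and for ATP5MC3, a c subunit gene of ATP synthase, at 118 CPM (next 187 CPM). Female 4 was the highest female for ATP5MC3 at 351 CPM (next 241 CPM).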

How the results depend on the processing

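No member passed an adjusted p of 0.05 in any comparison under any alternative run. The number of members above 0 moved in 4 cases. Between the sexes it was 34, and 18 without castrated male 1 and 13 with age in the model. For the difference of age slopes it was 7, and 12 without castrated male 1. For the mitochondrial share it was 37, and 21 without castrated male 1. The mean r between subunits, 0.748, was 0.480 without castrated male 1, female 2, female 4 and female 9, which leaves out the libraries of most extreme level. Slopes of 3 named members changed sign: NDUFAF1 in the difference of age slopes (-0.011 without female 10 and castrated male 10), NDUFB10 on the mitochondrial share (0.013 without both and 0.033 without castrated male 10) and SDHC on that share (0.16 and 0.11 in the same settings). The causes were not tested. The median log2 FPKM of the subunits was 7.12, and 7.13 with a pseudocount of 1. At such levels a pseudocount can change little, and the levels of libraries were not part of this check. No paired analysis was possible because the library numbers follow accession order and pair no animals. For 5 members (NDUFS4, NDUFAF4, NDUFAF6, NDUFS6 and COX8A) counts and FPKM correlated at r under 0.8 across libraries (median over members 0.967). SEs of 0.078 to 0.197 between the sexes limit what could be detected.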

Other observations

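Genes that handle reactive oxygen and uncoupling were measured beside the chain. CAT, which breaks down hydrogen peroxide, averaged 2007 CPM and ran from 1262 to 2622 CPM, SOD1, a superoxide dismutase, ran from 270.3 to 758.2 CPM and PRDX3, a mitochondrial peroxiredoxin, from 172 to 644 CPM, with SOD1 and PRDX3 lowest in castrated male 1. UCP3, a member of the uncoupling protein family, ran from 78.1 to 429 CPM, and UCP2 from 7.39 to 42.7 CPM. The 6 loci of this list had a mean r of 0.293 with the nuclear subunits over 20 libraries. On age, all 6 had slopes above 0 with a median of 0.14 per 10 days, none passed in edgeR, and TXN2, mitochondrial thioredoxin, had the smallest p at 0.24 (SE 0.116, adjusted p = 0.867).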
